A study of Homo sapiens with 18 samples.

Results

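KNS-42 cells that carried a codon-optimised DDX3X transgene were compared with parental KNS-42 cells, both with a control guide RNA, so that the endogenous DDX3X gene was the guide's target in neither line. KNS-42 is an established human glioma cell line. The comparison takes the 3 libraries named for the DDX3X overexpression line (DDX3Xoe) and the AAVS1 guide and the 3 named for the parental line and the same guide, 6 of the 18 libraries of the series. The question is what extra DDX3X does to the transcriptome of these cells while their own gene is intact. All 6 cultures expressed Cas9, were grown with puromycin, received the AAVS1 guide by lentivirus and were lysed on day 7 after transduction. AAVS1 is a site often used as a neutral target, so Cas9 may have cut there in both lines. The other 12 libraries are 3 of DDX3Yoe cells with the AAVS1 guide, which carry a codon-optimised copy of the Y-linked paralogue DDX3Y, and 9 of the same lines with guide 395 against endogenous DDX3X. The labels do not say whether the overexpression line is 1 clone or a pool, which promoter drives the transgene, or whether replicates were separate cultures, so p-values measure only the spread between these libraries.

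DDX3X is a DEAD-box RNA helicase, an enzyme that uses ATP to unwind short RNA duplexes. It is best known for helping ribosomes start on messages with structured leaders, for its place in stress granules, for a link to casein kinase and Wnt signalling, and for roles in antiviral sensing upstream of interferon. Mutations of DDX3X occur in brain tumours, mainly medulloblastoma. The family takes its name from the motif Asp-Glu-Ala-Asp in the helicase core. The stretch below shows these codons in the endogenous message, because a codon-optimised copy keeps the protein while its codons can differ. It is 60 bases of the DDX3X-217 coding sequence in GENCODE 29, bases 1015 to 1074 of 1986, and it spans the junction of exons 11 and 12 on chromosome X (GRCh38, 41344389 to 41345228, plus strand).

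endogenous DDX3X: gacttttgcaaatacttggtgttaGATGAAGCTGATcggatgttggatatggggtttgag

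Capitals mark the DEAD codons, which occurred 1 time in the coding frame. The sequence of the transgene is not given in the labels. The libraries read the 3' ends of polyadenylated transcripts, so a read on DDX3X need not cover this stretch, and a transgene with another 3' end need not be counted under DDX3X at all.

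The 6 libraries held 8.01 M to 13.2 M reads (M, 1e6), recovered from the deposited values, with 17320 to 20097 genes that had at least 1 read. Mitochondrial transcripts took 11.1 to 16.5% of reads. Glioma and forebrain progenitor transcripts were present in both lines. SOX2, a progenitor transcription factor, averaged 20079 ± 7440 normalised reads (SD, n = 3) in DDX3Xoe and 19173 ± 5101 in parental cells. VIM, GFAP, POU3F2 and DLX genes were also present, while OLIG2, SOX1, S100B and TUBB3 were at 0 in all 6 libraries. Of 54 markers of epithelial, blood, endothelial, fibroblast, oligodendrocyte and neuronal cells, 42 averaged under 10 and 14 were at 0 in all 6 libraries. CNP, SYT1, COL1A1 and KRT18 were the 4 that averaged over 100, in both lines.

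The library labelled DDX3Xoe replicate 1 stood apart in its DDX3X level. Counts of calls, the genes chosen by smallest p and the medians of the lists described that turn sign or move by over 1.5 times are therefore given without it too. DDX3X (ENSG00000215301, chromosome X, 41333284 to 41364472, plus strand), the gene the transgene encodes, held 668 normalised reads in the library labelled DDX3Xoe replicate 1, 1504 in replicate 2 and 1162 in replicate 3. The parental libraries held 1780, 1923 and 1729. All 3 DDX3Xoe values were below all 3 parental values, so no excess of reads on DDX3X was seen in the overexpression line. The mean was 1111 ± 420 (SD, n = 3) in DDX3Xoe and 1811 ± 100.2 in parental cells, a log2 fold change of -0.78 with a standard error of 0.30 and a 95% interval of -1.41 to -0.15. The adjusted p of limma over all genes tested was 0.9999, so the difference did not pass. Without the library labelled DDX3Xoe replicate 1 and its guide 395 counterpart the log2 fold change was -0.45 (adjusted p = 0.83 with limma).

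The guide 395 libraries show where that library lies. Under guide 395, which targets endogenous DDX3X, the parental libraries held 861, 844 and 953 reads on DDX3X. The libraries labelled DDX3Xoe with guide 395 held 1416 in replicate 1, 716 in replicate 2 and 578 in replicate 3. The value of 668 in the library labelled DDX3Xoe replicate 1 with the AAVS1 guide thus lay within the guide 395 range of replicates 2 and 3, and the value of 1416 in its guide 395 counterpart lay within the AAVS1 range of those replicates. By DDX3X alone the 2 libraries labelled DDX3Xoe replicate 1 could have exchanged guides. Over all genes tested, the one with the AAVS1 guide was most like parental replicate 1 with the AAVS1 guide among the other 17 libraries (r = 0.727 across genes of log2 deviations from the mean library). These libraries share a replicate number, which held more of the spread than line did under the AAVS1 guide. Parental replicate 1 with guide 395 has that number too and was not the nearest library. What the likeness says about the guide was not tested. Whether the labels were exchanged was not tested, and what the values of the library labelled DDX3Xoe replicate 1 stand for is uncertain to that extent. DDX3Yoe cells with the AAVS1 guide averaged 1458 ± 90.5 (SD, n = 3). The DDX3Xoe minus DDX3Yoe difference was -0.47 on the log2 scale, with a 95% interval of -1.10 to 0.16.

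**Figure D1:**
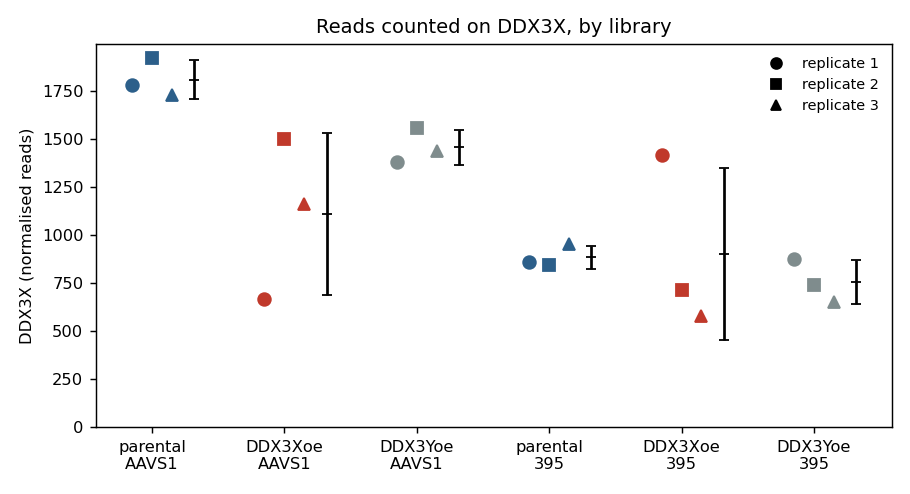
Normalised reads on DDX3X (vertical axis) in each of the 18 libraries, by line and guide. Symbols mark replicate numbers, and the black bar beside each group is its mean with 1 SD. The 3 parental AAVS1 libraries lie between 1729 and 1923, above all 3 DDX3Xoe AAVS1 libraries, of which replicate 1 is lowest at 668.

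No gene passed between the lines under the control guide. Of 15228 genes tested with limma, 0 had an adjusted p under 0.05 (0%), and the smallest adjusted p was 0.9999. At an unadjusted p under 0.05 there were 150 genes (0.985%), 83 higher and 67 lower in DDX3Xoe. The count tests of edgeR and DESeq2 on the recovered reads also called 0 genes, with 142 and 220 genes at an unadjusted p under 0.05. With the replicate number as a block, limma called 0 genes and 241 had an unadjusted p under 0.05. The groups did not overlap in 476 genes (3.13%), 236 higher (1.55%) and 240 lower (1.58%) in DDX3Xoe.

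Leaving out both libraries labelled DDX3Xoe replicate 1 left 0 genes called by limma, with 712 (4.68%) at an unadjusted p under 0.05 and a smallest adjusted p of 0.83. The remaining 2 DDX3Xoe libraries lay above all 3 parental ones in 1177 genes (7.73%) and below them in 998 (6.55%). In this comparison parental replicate 1 stays in its group, so the lines no longer hold the same replicate numbers.

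The precision of the comparison is given by the intervals of the fit without the replicate block. These intervals and the within-group SD include the spread between replicate numbers. Intervals with the block are not given here. The median within-group SD was 0.57 on the log2 scale, and the median size of the fold change was 0.20. In genes with a mean above 619.9 normalised reads the 95% interval reached a median of 0.61 to either side of the fold change, and 1.82 in genes with a mean below 23.7. For 6739 genes (44.3%) the whole interval lay within 1 log2 unit of 0. Without both libraries labelled DDX3Xoe replicate 1 this held for 4675 genes. For the other genes of each fit a change of that size was not excluded by the interval. A p that misses the threshold does not show that the lines were alike.

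**Figure D2:**
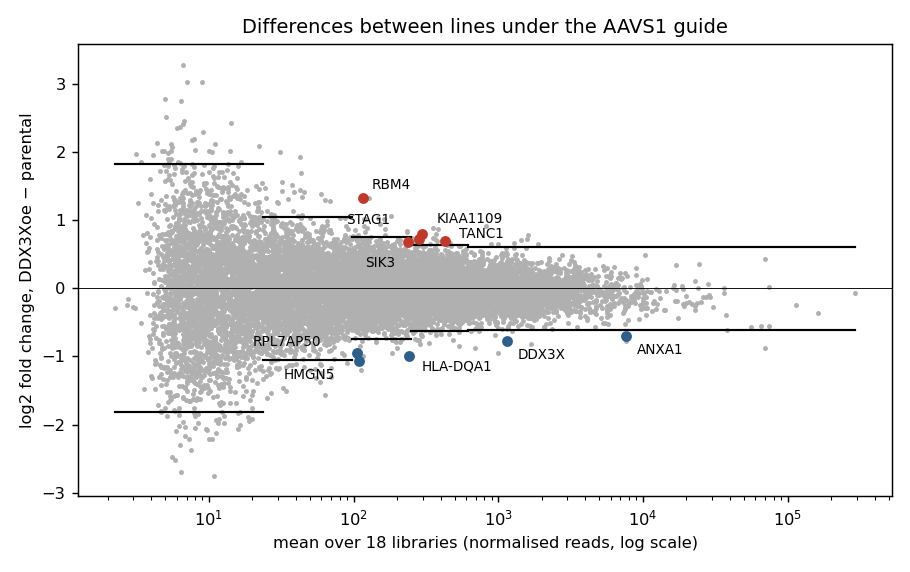
Log2 fold change of DDX3Xoe against parental (vertical axis) for 15228 genes against their mean level over 18 libraries (log horizontal axis). Black segments show the median reach of the 95% interval in 5 classes of level, and coloured points are the named genes (red higher, blue lower in DDX3Xoe), none of which passed the test.

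The genes with the smallest unadjusted p are given as values that did not pass (adjusted p = 0.9999 with limma in each). RBM4, an RNA-binding regulator of splicing and translation (chromosome 11, 66638617 to 66668374, plus strand), held 111, 185 and 149 normalised reads in DDX3Xoe replicates 1 to 3 and 55.7, 37.2 and 91.5 in parental cells. All 3 DDX3Xoe values lay above the parental ones, which the rule that chose these genes required. The log2 fold change was 1.32, with a 95% interval of 0.60 to 2.04, and 1.51 without the library labelled DDX3Xoe replicate 1. RBM4 has a close copy, RBM4B, and the counting could split reads between them.

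The other 4 genes on the higher side belong to chromatin, scaffold, kinase and lipid transport proteins. STAG1, a subunit of cohesin (chromosome 3, 136336233 to 136752403, minus strand), held 268, 402 and 294 in DDX3Xoe and 169, 186 and 221 in parental cells, a log2 fold change of 0.73 (95% interval 0.21 to 1.24). TANC1, a scaffold of the postsynaptic density, held 451, 601 and 417 against 357, 211 and 357 (log2 fold change 0.69). SIK3, a kinase of the salt-inducible family, held 235, 378 and 261 against 180, 139 and 224 (0.68). In these 3 genes the highest of the 6 libraries was DDX3Xoe replicate 2. KIAA1109, which encodes a lipid transfer protein, held 231, 566 and 260 against 208, 162 and 191 (log2 fold change 0.80), and again DDX3Xoe replicate 2 lay above the rest. Without the library labelled DDX3Xoe replicate 1 the log2 fold changes of STAG1, TANC1, SIK3 and KIAA1109 were 0.85, 0.74, 0.82 and 1.04.

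On the lower side, HLA-DQA1, a chain of a class II molecule of the major histocompatibility complex (MHC; chromosome 6, 32628179 to 32647062, plus strand), held 133, 215 and 212 normalised reads in DDX3Xoe and 442, 363 and 306 in parental cells. The 95% interval of its log2 fold change was -1.66 to -0.34, and the value without the library labelled DDX3Xoe replicate 1 was -0.77. ANXA1, a phospholipid-binding protein with anti-inflammatory activity (chromosome 9, 73151757 to 73170393, plus strand), held 8649, 5772 and 7040 against 12727, 13022 and 9209, a log2 fold change of -0.71 (95% interval -1.24 to -0.17). It is the most abundant of the genes chosen by smallest p. HMGN5, a nucleosome-binding protein, held 116, 66.0 and 70.2 against 185, 229 and 119 (log2 fold change -1.07), and its highest DDX3Xoe value lay close to its lowest parental value. RPL7AP50, a processed pseudogene of RPL7A, held 78.8, 55.4 and 102 against 126, 246 and 106, and reads of the parent gene could be counted there. Without the library labelled DDX3Xoe replicate 1 the log2 fold changes of ANXA1, HMGN5 and RPL7AP50 were -0.85, -1.32 and -0.97.

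**Figure D3:**
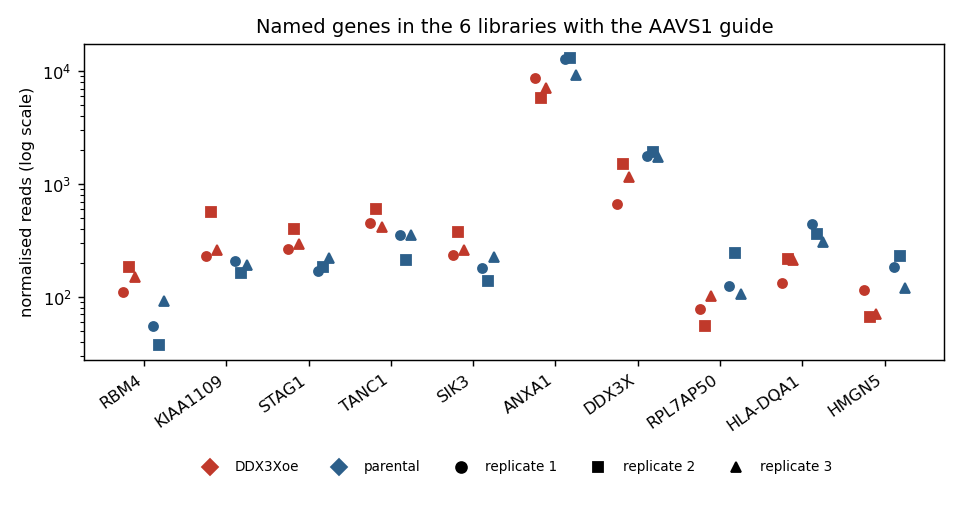
Normalised reads (log vertical axis) of the named genes in the 6 libraries with the AAVS1 guide. Red symbols are DDX3Xoe, blue are parental, and shapes mark replicate numbers. For every gene shown the red and blue points do not overlap, which was part of the rule that chose them.

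Gene lists gave no called member either. Over 34 lists, 0 of 1118 tested entries passed, and list medians lay between -0.39 and 0.22 on the log2 scale, 24 below 0 and 10 above. The median over all genes tested was -0.02, with 7969 of 15228 genes below 0. Leaving out both libraries labelled DDX3Xoe replicate 1 changed the sign of 10 of the 34 medians. Parental replicate 1 stayed in its group, so medians without those libraries also hold differences between replicate numbers.

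Translation and RNA helicases are the processes closest to the biochemistry of DDX3X. Of 52 initiation and elongation factors, 20 were above 0 and 32 below, with a median of -0.07 that was -0.12 without both libraries labelled DDX3Xoe replicate 1. EIF4E, the cap-binding factor, held 304, 425 and 456 in DDX3Xoe and 441, 671 and 477 in parental cells, and the groups overlapped. The 48 DEAD-box and DEAH-box helicases, DDX3X among them, had a median of 0.07 with 26 above 0, and 0.13 without those libraries. DHX40, a DEAH-box helicase, held 2600, 2747 and 2470 against 2059, 2168 and 2299, with no overlap and a log2 fold change of 0.26 (95% interval -0.11 to 0.63). Among 25 genes of mRNA export and nuclear processing the median was -0.07, and -0.27 without those libraries. NUP214, a nuclear pore protein, held 374, 928 and 521 against 393, 363 and 441.

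Stress granule components were above 0 in 27 of 35 members, with a median of 0.15, and 3 of the 35 did not overlap, all higher, beside 1.55% of all genes tested. ATXN2, an RNA-binding granule scaffold, held 661, 804 and 689 in DDX3Xoe and 593, 546 and 547 in parental cells, a log2 fold change of 0.35 (95% interval -0.05 to 0.75). AGO2, the small-RNA effector, held 467, 816 and 478 against 397, 264 and 472, and the groups overlapped. By pair, which is the DDX3Xoe library minus the parental library of the same number, the list's median was 0.03 in pair 1, 0.51 in pair 2 and -0.07 in pair 3.

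Interferon-stimulated genes, which respond to antiviral signalling, were below 0 in 42 of 51 members, with a median of -0.24. IFI6, an interferon-induced antiviral protein, held 16555, 51913 and 35855 in DDX3Xoe and 43776, 65589 and 66484 in parental cells. IFIT1, which binds viral RNA, held 2472, 6388 and 2959 against 6926, 6758 and 4932, and in both genes the groups overlapped, with the library labelled DDX3Xoe replicate 1 lowest. By pair the list's median was -1.14, 0.98 and -0.69. Without the library labelled DDX3Xoe replicate 1 it was 0.26, with 11 of 51 members below 0, so the direction of this list turned with that library.

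Antigen presentation had pair medians of the same signs as the interferon list. MHC class I and antigen-processing genes were below 0 in 19 of 21 members, with a median of -0.39. Without the library labelled DDX3Xoe replicate 1 the median was -0.11, with 13 of 21 below 0. TAP1, the peptide transporter, held 687, 684 and 777 against 1014, 770 and 1437. The pair medians were -0.56, 0.09 and -0.47. NF-kB and inflammatory genes had a median of -0.09 (-0.06 without those libraries), with 22 of 29 below 0 and all 3 pair medians below 0 (-0.28, -0.15 and -0.11). PTGS2, the inducible cyclooxygenase, held 182, 295 and 345 in DDX3Xoe and 383, 278 and 493 in parental cells.

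Genes of respiration and of the ribosome had their lowest pair medians in pair 2, and none of their members passed the test. All 13 mitochondrially encoded genes were below 0, with a median of -0.29 and pair medians of 0.01, -0.88 and 0.00. Without both libraries labelled DDX3Xoe replicate 1 the median was -0.45, with 11 of 13 below 0. MT-CYB, a subunit of respiratory complex III, held 104892, 49304 and 58905 in DDX3Xoe and 133868, 159903 and 45005 in parental cells. Parental replicate 2, the highest of the 6 for MT-CYB, also had the highest share of mitochondrial reads at 16.5%. That share counts MT-CYB itself. Of 69 nuclear oxidative phosphorylation genes 60 were below 0, with a median of -0.25 and pair medians of 0.08, -0.82 and -0.01. Without both libraries labelled DDX3Xoe replicate 1 the median was -0.42, with 55 of 69 below 0, and 14 of the 69 had an unadjusted p under 0.05, beside 4.68% of all genes, and none passed after adjustment. Cytosolic ribosomal proteins were below 0 in 56 of 79 members, with a median of -0.10 that was -0.28 without those libraries. Their pair medians of 0.29, -0.85 and 0.24 did not share a sign. The share of reads on ribosomal proteins was 7.67% in parental replicate 2 and 4.47% in DDX3Xoe replicate 2, the highest and the lowest of the 6. This share sums the reads of the same list, so it is not a measure separate from the list's levels.

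Proteasome and metabolic lists had medians on the lower side. The 31 proteasome genes had a median of -0.18, with 25 below 0, and PSMD3, a regulatory subunit, held 3818, 3285 and 3920 in DDX3Xoe and 5366, 5104 and 4156 in parental cells, without overlap. Its 95% interval was -0.86 to 0.05 around a log2 fold change of -0.40. Cholesterol synthesis genes had a median of -0.14, and -0.47 with 25 of 28 below 0 without both libraries labelled DDX3Xoe replicate 1. Their pair medians of 0.16, -0.37 and -0.10 did not share a sign. Glycolysis and hypoxia genes had medians of -0.11 and -0.19, with and without them. CA12, a carbonic anhydrase induced by hypoxia, held 25.6, 35.1 and 22.3 against 45.0, 57.1 and 46.9, without overlap.

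Growth and signalling lists had medians from -0.23 to 0.13 with all libraries, and several moved without both libraries labelled DDX3Xoe replicate 1. TGF-beta and YAP responsive genes had a median of -0.23 with 18 of 23 below 0, and -0.43 with 17 below 0 without those libraries. ANKRD1, a YAP target, held 1382, 1401 and 2805 in DDX3Xoe and 1944, 2120 and 4372 in parental cells. Wnt pathway and casein kinase genes (41 tested) had a median of 0.13 that was -0.05 without them. LRP6, the Wnt co-receptor, held 164, 190 and 148 against 179, 99.2 and 106, and the groups overlapped. Genes of G2/M had a median of -0.09 and those of DNA replication -0.14, with -0.24 and -0.45 without both libraries labelled DDX3Xoe replicate 1. BIRC5, a mitotic regulator, held 1063, 563 and 411 against 821, 950 and 600.

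Identity, matrix and chromatin genes had medians from -0.15 to 0.13. Glioma and forebrain progenitor genes had a median of 0.13 with 11 of 29 below 0. Without both libraries labelled DDX3Xoe replicate 1 it was -0.12 with 18 of 29 below 0, with parental replicate 1 still in its group. The pair medians were -0.02, 0.23 and 0.17, so the sign did not turn within the matched pairs that remained. SOX9, a transcription factor of glial progenitors, held 1419, 2767 and 1515 in DDX3Xoe and 1217, 873 and 1476 in parental cells. NES, the progenitor filament nestin, held 745, 1157 and 832 against 599, 804 and 645. Matrix genes had a median of -0.15 (-0.22 without those libraries) and pair medians of -0.15, -0.16 and -0.22. COL8A1, a short-chain collagen, held 75.8, 104 and 89.2 against 129, 148 and 126, without overlap. Chromatin regulators had a median of 0.12 with 27 of 42 above 0, and 0.21 without those libraries. JARID2, a cofactor of the Polycomb repressive complex, held 731, 945 and 754 against 571, 697 and 617.

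Replicate number accounted for more of the spread than line did. In the 6 libraries, replicate number held 68.3% of the sum of squares of log2 values over 15228 genes, line held 9.66% and the remainder 22%. Line has 1 of 5 degrees of freedom and number has 2, which would give 20% and 40% if the spread were equal per degree of freedom. PDGFRA, a receptor tyrosine kinase of glial progenitors, held 3471, 704 and 517 in DDX3Xoe and 3897, 499 and 492 in parental cells, so replicate 1 of both lines stood above the others. HES1, a Notch target, held 7212, 752 and 1438 against 6579, 634 and 1263. ATF4 and amino acid response genes had list levels of 0.95 and 0.91 in replicate 3 of DDX3Xoe and parental cells, -0.47 and -0.38 in replicate 1, and -0.56 and -0.63 in replicate 2, as log2 deviations from the mean of the 6. Unfolded protein response genes gave 0.80 and 0.97 in replicate 3. Without both libraries labelled DDX3Xoe replicate 1 the median fold change of the ATF4 list went from -0.01 to 0.26 and that of the unfolded protein response list from -0.19 to -0.03. Of the 34 lists, 7 had pair medians of 1 sign in all 3 pairs. Matrix, TGF-beta and YAP, NF-kB, unfolded protein response and proteasome genes were below 0, and helicases and chromatin regulators above. The helicase values were 0.013, 0.197 and 0.001, so the sign of its last pair rests on a value near 0. Whether 7 is more than unrelated signs would give was not tested.

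**Figure D4:**
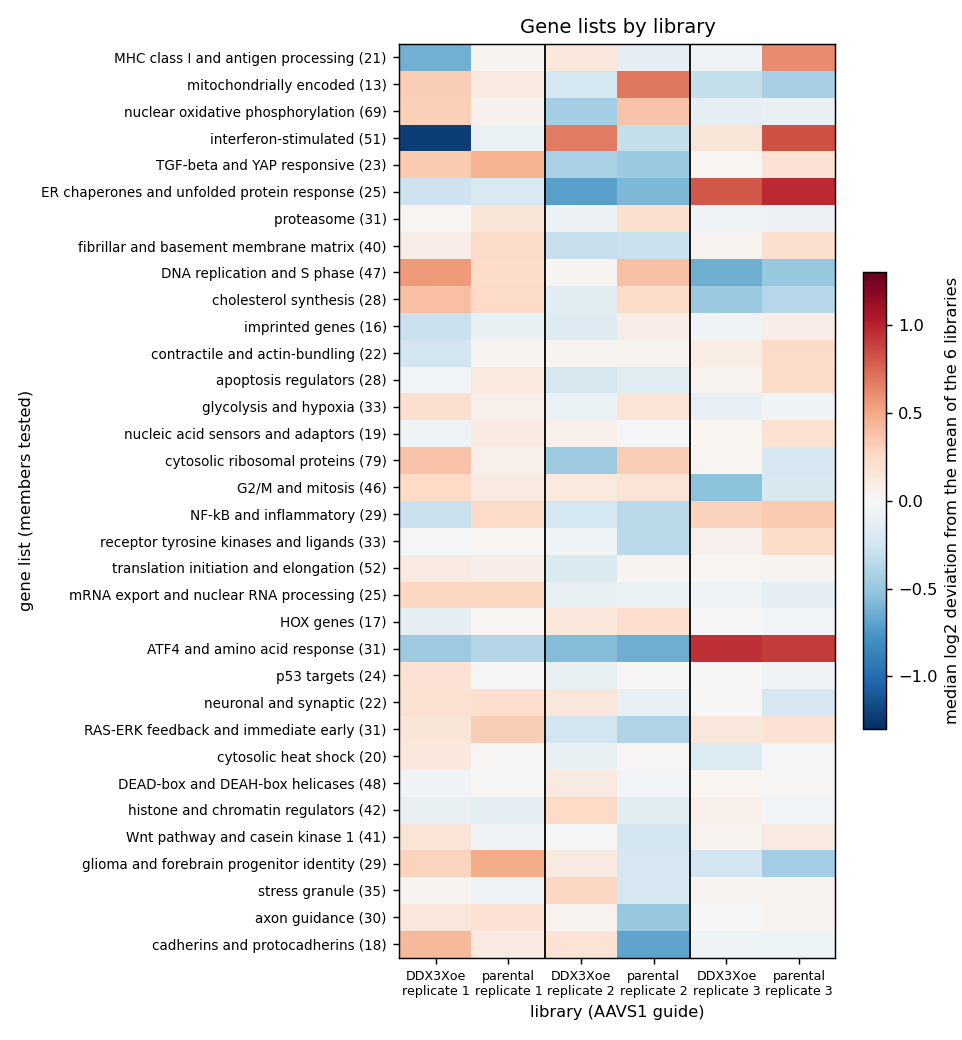
Median log2 deviation (colour) of each gene list, with its members tested in brackets, from the mean of the 6 libraries, with libraries of the same replicate number side by side. Both columns of replicate 3 have high levels of the ATF4 and unfolded protein response lists, and the interferon list is lowest in the library labelled DDX3Xoe replicate 1.

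The DDX3Yoe line with the same guide was set against the same 3 parental libraries. Since the 2 comparisons share those libraries, their values are only placed side by side. RBM4 was 1.08 on the log2 scale in DDX3Yoe minus parental, beside 1.32 for DDX3Xoe, and KIAA1109 was 0.91 beside 0.80. HLA-DQA1 was -1.07 in DDX3Yoe minus parental, and ANXA1 was -0.67 beside -0.71. SIK3 was 0.28 beside 0.68, and HMGN5 was -0.50 beside -1.07. The list median of stress granule genes was 0.25 in DDX3Yoe minus parental, beside 0.15 for DDX3Xoe. That of MHC class I genes was -0.45 beside -0.39, and that of interferon-stimulated genes -0.24 beside -0.24. Matrix genes had a median of 0.02 beside -0.15, and G2/M genes 0.11 beside -0.09, so these 2 lists differed in sign. Tested directly, 0 of 15228 genes differed between DDX3Xoe and DDX3Yoe with limma, with 136 at an unadjusted p under 0.05. For RBM4 the 95% interval of that difference was -0.47 to 0.96, and for HMGN5 it was -1.43 to 0.29.

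Guide 395 gives the same contrast of lines in 6 other libraries, but with endogenous DDX3X as the target. These libraries do not enter the AAVS1 fold changes, but they share the filter and the estimate of spread. Under guide 395, 305 genes (2%) were called by limma with Benjamini-Hochberg adjustment, 112 higher (0.735%) and 193 lower (1.27%) in DDX3Xoe. The count was 97 without both libraries labelled DDX3Xoe replicate 1. With the replicate block the count was 723. Of the 150 genes at an unadjusted p under 0.05 under the AAVS1 guide, 80 (53.3%) had the same sign under guide 395, beside 53.4% of all genes tested. RBM4 was 0.38 under guide 395, STAG1 0.53 and HLA-DQA1 -0.61, while SIK3 was -0.94 and HMGN5 0.82, opposite in sign to their AAVS1 values. The difference between guides itself passed in 7 genes (0.046%), with 16 under the replicate block and 0 without both libraries labelled DDX3Xoe replicate 1, and none of the named genes was among the 7. List medians under guide 395 were -1.60 for MHC class I, -1.48 for NF-kB and -1.20 for interferon-stimulated genes, beside -0.39, -0.09 and -0.24 under the AAVS1 guide, and the difference of the medians was not tested.

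**Figure D5:**
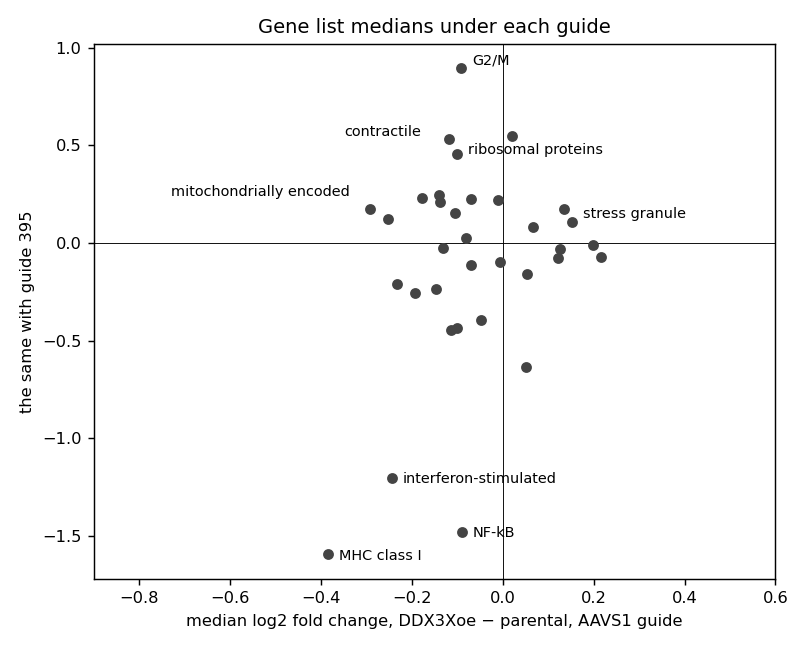
Median log2 fold change of DDX3Xoe against parental for 34 gene lists under the AAVS1 guide (horizontal axis) and under guide 395 (vertical axis). The horizontal values run from -0.39 to 0.22, and the MHC class I, NF-kB and interferon-stimulated lists lie lowest on the vertical axis.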

How the data were processed

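Per the labels' protocols, total RNA was made into libraries that read transcripts from their polyadenylated end. The authors deposited 1 table of normalised signal, with 58050 Ensembl identifiers and 18 libraries. Its values are gene counts divided by 1 scaling value per library, which the numbers themselves show: every value was a whole multiple of its library's step (100% within a tolerance of 0.01), giving 5.67 M to 13.2 M reads (M, 1e6). Per the submitters' processing notes, featureCounts 1.5.1, RSEM 1.3.0, STAR 2.5.2b and limma were used on GRCh38, without stated roles. The annotation release and strand setting are not stated. Names and positions for 57446 identifiers came from GENCODE 29.

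Groups came from the sample labels. A gene was tested if it reached 10 in 3 or more libraries (15228 genes). log2(value + 1) was fitted with limma 3.58.1 (R 4.3.3), using 6 group means, all 18 libraries, 12 residual degrees of freedom and an intensity trend. Adjustment was Benjamini-Hochberg, called under 0.05. The log scale with a pseudocount understates fold changes of low genes. edgeR 4.0.16 and DESeq2 1.42.0 used the recovered reads as alternatives. Deviations of DDX3Xoe and parental libraries from their group means correlated at 0.698, 0.385 and 0.416 for replicate numbers 1, 2 and 3, each over 0.1, and on this ground the numbers were treated as pairs in the fit with the block.

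Named genes are DDX3X and, since fewer than 5 were called in a direction, the 5 of smallest unadjusted p in each direction among genes at or above the 40th percentile of level whose groups do not overlap. Up to 4 members of smallest p per list could also be named. PDGFRA, HES1, SOX2 and the markers were named after their values were seen. The comparison, its members and the 41 lists were chosen with earlier results of these data known. Cancer-testis, blood, oligodendrocyte and neuron lists had fewer than 3 tested members and have no median. Alternatives changed the pseudocount, filter, scaling, moderation, block, libraries and test.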

Additional observations from a re-analysis of the deposited data

Results flagged for a closer look

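In 7 genes the DDX3Xoe against parental effect differed between guides, by the interaction contrast of limma with Benjamini-Hochberg adjustment over 15228 genes (0.046%), and they were picked for that difference after their values were seen. ACTA2, the smooth muscle actin, differed by 2.36 on the log2 scale (guide 395 minus AAVS1, adjusted p = 0.0384). Under the AAVS1 guide it held 808, 546 and 868 normalised reads in DDX3Xoe and 920, 1395 and 1005 in parental cells, and under guide 395 it averaged 720 ± 229 and 204 ± 34.3 (SD, n = 3). TMOD1, an actin filament capping protein, differed by 2.15 (adjusted p = 0.0496) and PTRHD1 by 2.04. CBARP differed by -2.04, KCNMB3 by -4.11, the pseudogene ZDHHC8P1 by -3.95 and TOB2 by -2.27. KCNMB3, a potassium channel subunit, averaged 33.7 and 21.8 under the AAVS1 guide and 24.2 and 239 under guide 395, in DDX3Xoe and parental cells. Under guide 395 the parental libraries are thus the ones that differ most in KCNMB3. Without both libraries labelled DDX3Xoe replicate 1, 0 genes passed this test, with 976 at an unadjusted p under 0.05. Leaving out 1 AAVS1 library also ended the calls: the count was 0 without DDX3Xoe replicate 1, DDX3Xoe replicate 2, parental replicate 2 or parental replicate 3. It was 1 without DDX3Xoe replicate 3 and 4 without parental replicate 1. With the replicate block the count was 16.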

How the results depend on the processing

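The count of called genes between the lines under the AAVS1 guide was 0 in every alternative run, leaving out each library in turn included. The log2 fold change of DDX3X lay between -1.04 and -0.45 over the alternatives and did not pass in any. Named genes other than DDX3X had adjusted p-values between 0.813 and 1 over the alternatives. Of 737 list medians under alternatives, 17 moved by more than their spread between replicates. The pairing of replicate numbers, used as a block, changed none of the calls under the AAVS1 guide, but it moved 2 other counts: 723 genes in the guide 395 comparison (305 without the block) and 16 between guides (7 without). The guide 395 count was 97 without both libraries labelled DDX3Xoe replicate 1 and 803 with DESeq2. The count between guides was 4 with median centring, 4 with no intensity trend, 86 with DESeq2, 0 without both libraries labelled DDX3Xoe replicate 1, and between 0 and 4 when each AAVS1 library was left out. The cause was not tested. Fits of the 6 libraries alone give no value for guide 395. Depth limits the least abundant genes, and 3 libraries a group limit all.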
